A study of Mus musculus with 2 samples.

Results

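The genes described here encode the receptors through which serotonin, dopamine, noradrenaline, adrenaline and acetylcholine act on cells. They were taken by symbol from the mouse GENCODE annotation (Htr, Drd, Adra, Adrb, Chrm or Chrn with a subtype number or letter, without Drd1 and Drd2), which gave 47 of 21938 protein-coding genes. DNase-seq, in which the nuclease DNase I cuts DNA that is not shielded by packed nucleosomes, was carried out on the left cerebral cortex. The tissue came from 2 females, each 36 days old. Both animals were B6CASTF1/J, the first-generation cross of the B6 and CAST strains, and each gave 1 library, called replicate 1 and replicate 2 as in the labels. The labels number the animals apart but list them under a shared donor entry. There was 1 group and no treatment or second genotype, so no condition was compared, no test over samples was possible, and every difference below describes these libraries. The files do not separate the alleles of the parental strains.

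Proteins of 2 classes serve these transmitters. G-protein coupled receptors pass the signal to a G protein, which raises or lowers cyclic AMP, releases calcium or opens potassium channels over a slower time course. The nicotinic acetylcholine receptors and the serotonin 5-HT3 receptor are instead ion channels of several subunits that open directly when the transmitter binds. In cortex the transmitters come mostly from axons whose cell bodies lie in the brainstem, midbrain and basal forebrain, so the cortical cells hold chiefly the receiving side of the system.

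A promoter was called accessible when a region with a peak in each mouse, from the shorter and stricter of the 2 deposited peak lists of each library, came within 1 kb of any annotated start of the gene. Of the 47 receptor genes, 28 (59.6%) had such a promoter peak, and the share among all protein-coding genes was 61.1%. In the longer deposited lists 31 receptor genes had one, against 65.5% of all protein-coding genes. The receptor genes thus lay near the background in how many of their promoters were called, with no limit set on height. Within them the classes differed: 23 of 29 genes of G-protein coupled receptors had a promoter peak, and 5 of 18 genes of channel subunits, a difference given as a description with no test. In bulk tissue fewer cells with an accessible site and less access per cell cannot be told apart. Starts of genes that are not protein-coding also lay within 1 kb of promoter regions of some receptor genes. Examples are Adra1d, Adrb3, Chrm1, Chrm2, Htr1b and Htr6. There the promoter of the receptor gene cannot be told apart from that of the other gene.

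Peak height is the authors' own signal value per library, with a normalization that is not stated. It is therefore also given as a percentile, the share of the library's shorter-list peaks that were no higher. The accessible receptor promoters were of middling height. Their median percentile was 63.6 in replicate 1 and 57.6 in replicate 2, whereas the median accessible promoter of all protein-coding genes stood at 87.3 and 89.5. None of the 28 lay above that gene-wide median in replicate 1, and none in replicate 2 (0 in each). The order of heights was alike in the mice, with Spearman's rho 0.87 across the 28 promoters, which come from the same pair of libraries.

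**Figure D1:**
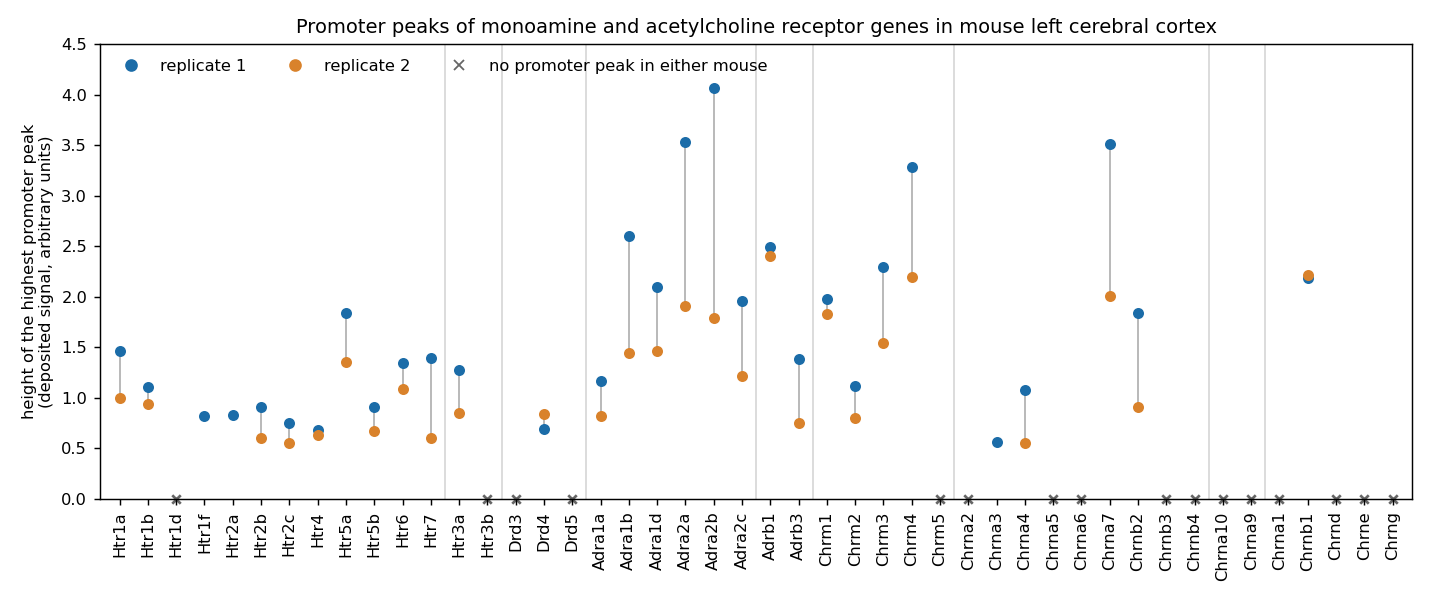
Height of the highest promoter peak (deposited signal, arbitrary units) of the receptor genes named along the axis, ordered by class, with 1 point for each mouse and a grey line joining the mice. Adrenergic and muscarinic genes hold most of the high promoters, 3 genes have a point in replicate 1 alone, and crosses at 0 mark the 16 genes with no promoter peak in either mouse.

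The adrenergic receptors, which bind noradrenaline and adrenaline, had a promoter peak in all 9 of 9 genes. Adra2b, an alpha-2 receptor that lowers cyclic AMP through Gi, had the highest promoter peak of replicate 1, with a height of 4.06 there and 1.79 in replicate 2. Its percentiles were 87.1 and 79.3. Adra2a, the alpha-2 receptor known as the target of clonidine and guanfacine in cortex, had heights of 3.53 and 1.91. The third alpha-2 gene, Adra2c, was lower, at 1.96 and 1.21. The accessible region of Adra2b ended upstream of the gene, and its sequence is shown because it had the highest promoter peak of the set in 1 mouse. Capitals here and below, for whole regions, mark bases inside a footprint called in each of both mice, a footprint being a short stretch that the authors called as protected within an accessible region. All sequences are the mm10 reference, on the plus strand unless stated, and the CAST allele may differ.
Adra2b chr2:127362521-127362720: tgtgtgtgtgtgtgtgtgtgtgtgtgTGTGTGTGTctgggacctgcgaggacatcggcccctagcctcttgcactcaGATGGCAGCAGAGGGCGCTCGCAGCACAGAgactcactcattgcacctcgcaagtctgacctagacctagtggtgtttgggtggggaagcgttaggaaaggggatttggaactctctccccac
One footprint covered the core of a stretch with an AGGGCGC run, and another fell in a TG repeat at the left end of the region. A match to the CTCF core, described with Chrm4 below, overlapped a shared footprint of this region with 1 of its 8 fixed letters changed. So loose a search matched 63.0% of regions in the receptor gene windows and 50.6% of all regions, and separates little.

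The alpha-1 receptors, which release calcium through Gq, were accessible as well. Adra1b had heights of 2.60 and 1.44, Adra1d 2.10 and 1.46, and Adra1a 1.17 and 0.819. The peaks of Adra1b did not lie at the 5′ end of the gene but at a second annotated start inside it. Among the beta receptors, which raise cyclic AMP through Gs, Adrb1 had 2.49 and 2.40. Adrb3, best known from fat cells, was lower, at 1.38 and 0.752, and its peak also lay at an internal start. Replicate 2 had the lower heights in general, by a median ratio of 0.744 over all regions with 1 peak in each mouse, so ratios between the mice were centred on that median. The centred log2 ratio of replicate 2 to replicate 1 was -0.76 at Adra2b and 0.37 at Adrb1. Its SD over all such regions was 0.48.

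Adrb1 carried the promoter with the most footprints. Its region of 800 bp held 15 footprints in replicate 1, 14 in replicate 2 and 9 that overlapped between the mice. The stretch of 300 bases outside the annotated UTR that held the most bases in footprints of both mice is shown.
Adrb1 chr19:56721779-56722078: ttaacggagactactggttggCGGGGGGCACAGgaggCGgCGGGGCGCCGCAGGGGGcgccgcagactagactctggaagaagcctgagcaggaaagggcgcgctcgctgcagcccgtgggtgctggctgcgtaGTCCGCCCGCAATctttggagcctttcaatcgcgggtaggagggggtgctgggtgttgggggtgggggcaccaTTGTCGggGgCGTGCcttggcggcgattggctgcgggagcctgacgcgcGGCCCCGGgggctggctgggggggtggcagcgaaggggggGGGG
The footprints lay in runs of G and C, and 1 match to GGGCGG or its complement, the SP/KLF box, in the central 300 bp of the region fell in a shared footprint.

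Of the muscarinic acetylcholine receptors, the G-protein coupled class for acetylcholine, 4 of 5 genes had a promoter peak. Chrm4, which couples to Gi, had heights of 3.28 in replicate 1 and 2.19 in replicate 2, the highest mean percentile of all receptor promoters at 83.4. Its window, like that of Adra1d, was covered unevenly in the mice, as described with the values for Chrne. Chrm3 had 2.29 and 1.54, and Chrm1, the main Gq-coupled muscarinic receptor of cortical pyramidal cells, 1.98 and 1.83. Chrm2 was lower at 1.12 and 0.797. Chrm5, known from dopamine neurons of the midbrain, had no peak of the shorter lists within 10 kb in either mouse. The Chrm4 peak was centred 802 bp into the gene, in its coding exon, and no longer counted when the window around starts was narrowed to 500 bp.
Chrm4 chr2:91927961-91928140: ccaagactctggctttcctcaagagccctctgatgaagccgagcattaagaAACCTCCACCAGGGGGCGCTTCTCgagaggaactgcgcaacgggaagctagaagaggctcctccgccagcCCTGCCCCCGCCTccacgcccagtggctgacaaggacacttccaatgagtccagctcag
Its first footprint covered a match to the CTCF core, CCANNAG followed by 2 bases and GGC.

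The G-protein coupled serotonin receptors had promoter peaks in 9 of 12 genes, but low ones. Heights ran from 0.681 (Htr4) to 1.84 (Htr5a) in replicate 1 and from 0.550 (Htr2c) to 1.35 (Htr5a) in replicate 2. The 9 adrenergic genes ran from 1.17 to 4.06 and from 0.752 to 2.40, so the ranges overlapped. Median percentiles were 47.4 and 32.1 for the accessible serotonin genes and 74.4 and 72.4 for the alpha adrenergic genes. Htr1a, the Gi-coupled receptor that also serves as autoreceptor of serotonin neurons, had 1.46 and 0.999. Htr1b had 1.11 and 0.937, Htr6, which raises cyclic AMP, 1.34 and 1.09, and Htr7 1.39 and 0.600. The lowest were Htr2b (0.906 and 0.600), Htr5b (0.906 and 0.673), Htr2c (0.748 and 0.550), which is on the X chromosome, and Htr4 (0.681 and 0.628). Their percentiles lay between 23.1 and 36.9 in replicate 1 and between 20.7 and 32.1 in replicate 2.

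Htr2a, the Gq-coupled receptor through which classical psychedelics act, had a promoter peak in replicate 1 only, with a height of 0.833. Htr1f, the target of lasmiditan, also had one in replicate 1 only, at 0.815. In the longer lists both had one in each mouse, with heights of 0.833 and 0.662 for Htr2a and 0.815 and 0.572 for Htr1f. Htr1d had no promoter peak in either list, and its lowest listed FDR within 1 kb of a start was 0.00111 in replicate 1 and none was listed in replicate 2. FDR is the authors' false discovery rate of the DNase cut rate at a position.

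Dopamine receptors were represented by 3 genes. Drd4, a Gi-coupled receptor found in prefrontal cortex, had a promoter peak of 0.693 in replicate 1 and 0.836 in replicate 2, a centred log2 ratio of 0.70. It lay over a coding exon close to the start.
Drd4 chr7:141292060-141292271: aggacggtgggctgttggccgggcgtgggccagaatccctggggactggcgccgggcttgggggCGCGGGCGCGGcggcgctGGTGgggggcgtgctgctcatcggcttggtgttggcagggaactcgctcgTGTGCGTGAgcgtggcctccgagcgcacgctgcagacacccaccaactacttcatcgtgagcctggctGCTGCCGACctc
Drd3, best known from the islands of Calleja and the nucleus accumbens, and Drd5, a Gs-coupled receptor, had no promoter peak in either mouse. Drd5 had FDR values of 0.0208 and 0.0202 at its start, so both libraries listed positions there under the limit of 0.05 at which the files stop.

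Among nicotinic subunits, 4 of 16 genes had a promoter peak. Chrna7, which forms channels on its own, had heights of 3.51 and 2.01, at percentiles 84.0 and 82.2. Chrnb2, the beta subunit of the main high-affinity receptor of the brain, had 1.84 and 0.903, and its partner Chrna4 had 1.08 and 0.550. The Chrna4 peak lay at an annotated start inside the gene, and it no longer counted when peaks of the mice had to overlap by 50%. Chrna3, a subunit of autonomic ganglia, had a peak in replicate 1 only (0.565), and one in each mouse in the longer lists (0.565 and 0.337). The part of the Chrna7 region outside annotated UTR sequence is shown, because it had the highest mean percentile among promoters of channel genes. In replicate 2 alone the Chrnb1 promoter stood higher (2.21).
Chrna7 chr7:63212514-63212700: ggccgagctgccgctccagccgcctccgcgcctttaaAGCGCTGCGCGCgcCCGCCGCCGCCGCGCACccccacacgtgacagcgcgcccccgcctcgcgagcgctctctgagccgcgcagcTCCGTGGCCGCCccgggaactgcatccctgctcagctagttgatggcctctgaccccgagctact
The footprints lay in CGC-rich runs. The whole region, which reaches into the annotated UTR, had 76.2% GC and an observed to expected CpG ratio of 1.15.

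The other brain subunits (Chrna2, Chrna5, Chrna6, Chrnb3 and Chrnb4) had no promoter peak in either mouse. Chrna6 and Chrnb3 are known from midbrain dopamine neurons. The window of Chrna6, the gene with 10 kb to each side, listed no base under FDR 0.05 in either library. The hair-cell subunits Chrna9 and Chrna10 had no promoter peak either, and neither did Chrna1, Chrnd, Chrne and Chrng of the muscle receptor. The muscle subunit Chrnb1 differed from its partners, with heights of 2.18 in replicate 1 and 2.21 in replicate 2. Of 5 skeletal muscle marker genes, 1 (Ckm, heights 4.79 and 1.56) had a promoter peak, and Acta1, Mb, Myh1 and Myod1 had none. The serotonin channel gene Htr3a, known from a class of cortical interneurons, had 1.27 and 0.847, and Htr3b had no promoter peak in either mouse.

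Accessible promoters went with CpG content. In the 1 kb around the 5′ end, an observed to expected CpG ratio of 0.75 and over was found for 6 receptor genes, and 6 of 6 had a promoter peak. The counts were 9 of 12 between 0.50 and 0.75, 8 of 14 between 0.25 and 0.50 and 5 of 15 under 0.25. Over all protein-coding genes the shares in the same classes, from low to high CpG, were 12.9%, 46.9%, 86.7% and 96.1%. These counts take a peak at any annotated start of the gene, and in Chrna4, Adra1b and Adrb3 it lay at another start than the 5′ end whose CpG was read. With a peak within 1 kb of the 5′ end itself, a count added after the values were seen, the receptor genes gave 4 of 15, 6 of 14, 9 of 12 and 6 of 6 from low to high CpG. All protein-coding genes then gave 4.76% in the lowest class and 95.7% in the highest. The CpG-poor genes with a peak at the 5′ end were Chrm1, Chrm4, Htr2b and Htr3a. The 3 genes between 0.50 and 0.75 without one in both mice were Chrna3, Drd5 and Htr1f. Drd5 lay at the upper edge of that class, with a ratio that rounds to 0.75, so the 6 of 6 depends on where the class was cut. The median ratio was 0.49 in the G-protein coupled receptors, 0.22 in the channel genes and 0.55 in all protein-coding genes.

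**Figure D2:**
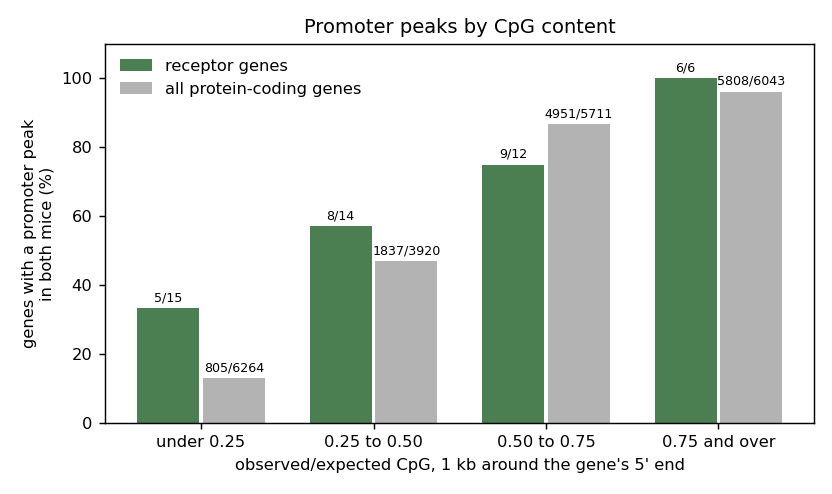
Share of genes with a promoter peak in both mice (%) at any annotated start, by the observed to expected CpG ratio of the 1 kb around the gene's 5′ end, for the 47 receptor genes (green) and all 21938 protein-coding genes (grey), with the counts above the bars. Both shares rise with CpG content, from 33.3% to 100% in receptor genes and from 12.9% to 96.1% in all genes.

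Regions called in both mice were next counted over the whole gene window, promoter regions included. At least 1 was found for 41 of the 47 receptor genes (87.2%), against 76.0% of all protein-coding genes. The 6 without one were Chrm5, Chrna5, Chrna6, Chrna10, Chrne and Drd5. Some of the 41, such as Adra2a, Adrb1 and Chrna7, had promoter regions alone. Chrm1 had the most regions, 6, in a window of 39799 bp. Adra1b and Htr1b had 5 each, and Adrb3, Chrm2 and Chrm3 had 4 each, followed by 8 genes with 3. The median density was 0.304 regions per 10 kb, against 0.352 over all protein-coding genes. It was 0.194 over 24 glutamate receptor genes and 0.184 over 19 GABA-A receptor genes, whose median windows were longer, at 279 and 109 kb against 37.1 kb. Of those, 20 of 24 and 12 of 19 had a promoter peak.

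The windows held 92 such regions in all. Of these, 48 were promoter regions of the receptor genes, 18 lay in introns, 16 upstream and 7 downstream of the gene, and 3 in other exonic parts. For 13 regions (14.1%) the centre lay in a coding exon of some gene, against 5.03% of all 48886 regions called in both mice. The sets are unlike, as the windows were drawn around genes. Within 1 kb of a protein-coding start lay 55 of the 92 and 19489 of the 48886. For 12 of the 13 regions it was the exon of the receptor gene itself. Every one of these 12 belonged to a G-protein coupled receptor, many of which have coding sequence in a single exon close to the start. Examples are Adrb1 (1.77 and 1.59), Htr1a (1.46 and 0.999) and Adra2c (1.16 and 1.05).

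**Figure D3:**
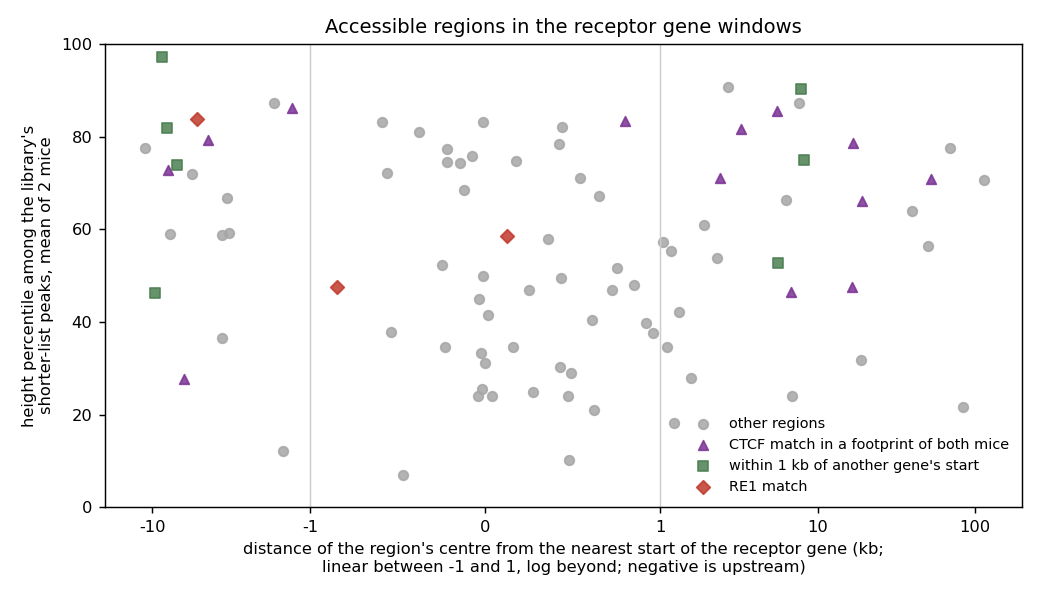
Each point is 1 of the 92 regions called in both mice in the receptor gene windows, placed by the distance of its centre from the nearest start of the receptor gene (kb, linear within 1 kb and log beyond) and by its height percentile, the mean of the mice. Squares are regions at starts of other protein-coding genes, triangles hold a CTCF match in a shared footprint, and diamonds hold an RE1 match. Many of the high points beyond 1 kb are squares or triangles.

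Ranked by mean percentile over the mice, the 2 highest regions away from receptor promoters that were not at another protein-coding gene's start lay in introns. In replicate 2 alone a pair of regions upstream of Chrm1 (3.25 and 2.69) and a region upstream of Chrm4 (2.63) were higher than both, and in replicate 1 a region downstream of Htr1b (4.23) exceeded the one in Chrna1. In the intron of Htr2a, centred 2701 bp from the start, a region reached 6.53 in replicate 1 and 2.36 in replicate 2, percentiles 95.6 and 85.7. It was thus much higher than the promoter peak of Htr2a itself, which was called in replicate 1 only. In an intron of Chrna1, whose promoter had no peak, a region reached 4.12 and 2.56. Both had few CpGs, with observed to expected ratios of 0.20 and 0.19. They are shown because they stand among the 4 highest of the 92 by that measure.
Htr2a chr14:74643461-74643620: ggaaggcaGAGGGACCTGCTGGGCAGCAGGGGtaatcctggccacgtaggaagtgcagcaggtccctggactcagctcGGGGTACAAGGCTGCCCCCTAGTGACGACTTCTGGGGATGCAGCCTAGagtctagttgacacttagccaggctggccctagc
Chrna1 chr2:73572561-73572780: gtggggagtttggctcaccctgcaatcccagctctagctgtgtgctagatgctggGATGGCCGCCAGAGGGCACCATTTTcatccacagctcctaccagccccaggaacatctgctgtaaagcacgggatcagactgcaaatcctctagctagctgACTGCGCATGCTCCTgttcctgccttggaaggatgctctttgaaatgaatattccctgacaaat
Footprints of both mice covered 72 of the 160 bases at Htr2a. With 1 of the 8 fixed letters of the CTCF core changed, both regions also had a match to it that overlapped a shared footprint. A search with 1 letter free gave such an overlap in 35 of the 92 regions. The second footprint at Chrna1 held the NRF1 box GCGCATGC, the 1 match to it among the 92 regions (1.09%, against 2.56% of all).

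By the same measure the single highest region (7.05 and 5.42) lay in the flank of Chrnb2 but within 1 kb of the start of the neighbour Ube2q1, and the third highest in the flank of Chrng at the start of Eif4e2 (4.55 and 3.27). In all, 7 regions lay at starts of other protein-coding genes (Ube2q1, Eif4e2, Got1l1, Eif4ebp1 and Fgf11), so these cannot be told apart from the neighbours' promoters. Without them 40 receptor genes had a region in the window.

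Upstream of Chrm1 stood a pair of regions with no protein-coding start nearby. Centred at -1698 and -1308 bp from the nearest Chrm1 start, they had heights of 3.39 and 3.25 and of 3.57 and 2.69. Both exceeded the Chrm1 promoter (1.98 and 1.83) in each mouse. Both lie in AC025794.1, a gene that is not protein-coding. The second, like the promoter regions of Chrm1, lies within 1 kb of an annotated start of AC025794.1. None of these can be told apart from a promoter of that gene.
Chrm1 chr19:8661941-8662240: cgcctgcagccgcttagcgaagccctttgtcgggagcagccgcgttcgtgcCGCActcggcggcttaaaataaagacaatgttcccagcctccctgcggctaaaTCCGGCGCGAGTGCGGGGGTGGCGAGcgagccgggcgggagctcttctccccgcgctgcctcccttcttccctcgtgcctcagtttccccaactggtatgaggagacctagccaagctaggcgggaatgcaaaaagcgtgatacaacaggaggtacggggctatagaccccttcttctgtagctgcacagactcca
Chrm1 chr19:8662341-8662620: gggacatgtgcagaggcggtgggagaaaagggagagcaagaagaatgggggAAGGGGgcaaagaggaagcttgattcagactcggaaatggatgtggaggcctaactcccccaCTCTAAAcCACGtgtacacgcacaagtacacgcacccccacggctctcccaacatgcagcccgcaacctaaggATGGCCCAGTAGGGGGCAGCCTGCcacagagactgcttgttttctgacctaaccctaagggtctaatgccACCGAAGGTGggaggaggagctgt
The first is rich in CpG (observed to expected ratio 0.89) and the second is not (0.35) and carries a CTCF match in a shared footprint.

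Chrna9, which had no promoter peak, had 2 regions in its window. The intronic one had heights of 3.48 and 1.40, and a shared footprint overlapped a CRE box, TGACGTCA, the element bound by CREB. A match to the CTCF core with 1 of its 8 fixed letters changed also overlapped a shared footprint of that region. With 1 letter free, such overlaps were found in 35 of the 92 regions.
Chrna9 chr5:65955881-65956100: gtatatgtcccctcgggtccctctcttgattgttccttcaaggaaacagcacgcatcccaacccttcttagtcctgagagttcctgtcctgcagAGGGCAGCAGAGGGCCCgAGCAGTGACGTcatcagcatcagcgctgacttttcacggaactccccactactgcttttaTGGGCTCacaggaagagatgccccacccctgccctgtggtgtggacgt
This was the 1 CRE match among the 92 regions (1.09%, against 1.50% of all regions). Adra1b had a region of 2.88 and 1.59 downstream of the gene and one of 2.38 and 1.26 in an intron. Drd3, whose promoter had no peak, had an intronic region of 2.10 and 1.02. Htr1b had a region of 4.23 and 2.07 downstream, against 1.11 and 0.937 at its promoter.

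Some introns held accessible regions far from the start. In Htr4 a region centred 113441 bp from the nearest of its 3 annotated starts had heights of 1.61 and 1.72, above the promoter peak of that gene in each mouse. Measured in the same way, in Chrm2 one centred at 49986 bp had 1.13 and 1.21, and in Htr1f one at 83288 bp had 0.730 and 0.510. A second region of Htr2a, at 18855 bp, had 0.687 and 0.769. The regions in introns of Htr4 and Chrm2 both had a centred log2 ratio of 0.52, and the low region of Htr2a had 0.59. The opposite end was held by a region upstream of Adrb3 (2.56 and 0.785, centred log2 ratio -1.28), a region in a Chrna3 intron that also falls in the Chrnb4 window (3.16 and 1.10, -1.10) and the high intronic region of Htr2a (-1.04). Over the 78 receptor regions with 1 peak in each mouse the SD of the ratio was 0.43, and it was 0.30 at starts of protein-coding genes and 0.57 away from them. Spearman's rho of the heights was 0.88 across the 92 regions.

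The FDR files give the extent of access without a peak call. The window of Htr1b had 4599 of its 25538 bases under 0.05 in replicate 1 and 4991 (19.5%) in replicate 2, the highest shares outside the uneven windows. Adra2a followed with 2959 and 2721 of 24832 bases, and Adra2c with 10.8% and 10.5%. Adrb1 was next in replicate 1 only, with 10.5% and 6.58%, while Htr1a had 9.42% in each mouse. These are short genes, with windows of 23445 to 30915 bp. Long genes had low shares, such as Htr2c at 0.503% and 0.215% of 254765 bp and Chrm3 at 0.874% and 1.38% of 505362 bp.

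Footprints were next compared between the mice. Of the 92, 70 (76.1%) held a footprint overlapping between the mice, against 86.4% of all regions. All regions were ranked by mean percentile and divided into 4 classes of equal number. In the lowest class 11 of 26 receptor regions (42.3%) held a shared footprint, against 66.7% of all regions there. In the next classes 84.6% and 88.5% stood against 83.8% and 95.5%, and in the highest it was 14 of 14 against 99.8%. The lower classes held 26 receptor regions each and the highest 14.

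The RE1 element, bound by the repressor REST that holds neuronal genes silent outside neurons, was searched as TTCAGCACC, 2 bases and GGACAGCG on both strands of the central 300 bp, with up to 3 of 17 letters changed. It was found in 3 of 92 regions (3.26%), against 0.338% of all regions. The site at Chrnb2 had no changed letter, that at Htr1a 1 and that at Chrm4 3. Capitals mark the match, and each is written on its own strand.
Chrnb2 chr3:89764451-89764479 (- strand): gcggcTTCAGCACCACGGACAGCGctccg
Htr1a chr13:105442782-105442810 (- strand): ttgggTTCAGCACCCGGGACAGCTctgtg
Chrm4 chr2:91921972-91922000 (- strand): cggacTCCAGCACCGAGGGCACCGcccac
The Chrnb2 match lay in the 5′ part of the gene, inside the promoter region (1.84 and 0.903), and overlapped a footprint of both mice. The Htr1a match lay in the region centred at -843 bp from the start (1.35 and 0.752), and the Chrm4 match in one centred at -5248 bp (2.90 and 2.63), and neither overlapped a shared footprint. The Chrm4 region lay within 1 kb of an annotated start of Gm10805, a gene that is not protein-coding. It cannot be told apart from a promoter of that gene. A match is a likeness of letters and does not show that REST was bound. With 3 matches the share is set by few regions. The Htr1a region with its single shared footprint, which ends before the match, is given for context.
Htr1a chr13:105442701-105442890: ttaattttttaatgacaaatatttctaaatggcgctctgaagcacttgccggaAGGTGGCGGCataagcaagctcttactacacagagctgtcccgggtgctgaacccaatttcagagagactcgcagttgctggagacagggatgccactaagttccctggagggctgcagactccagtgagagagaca

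Matches to the CTCF core, which belongs to the protein that anchors chromatin loops, were found in 20 of 92 regions (21.7%), against 13.7% of all regions. In 15 the match overlapped a shared footprint. Those of regions away from receptor promoters are shown with 9 bases to each side, the core in capitals and on the strand of the match.
Chrna1 chr2:73584746-73584775 (+ strand): gcccagcggCCAGCAGGTGGCaacagacgg
Chrnb2 chr3:89772719-89772748 (- strand): tcgtcgttcCCACTAGGTGGCactatcaca
Chrna9 chr5:65938207-65938236 (- strand): cacccatgaCCAGCAGAGGGCagcaggaga
Adrb3 chr8:27222863-27222892 (+ strand): ctcatatagCCACCAGGAGGCgcctaacac
Chrnb3 chr8:27362417-27362446 (+ strand): atacattatCCATTAGAGGGCgcccaagtc
Htr3a chr9:48894289-48894318 (- strand): agattctgtCCACCAGGTGGCagcaaagcc
Chrna3 and Chrnb4 chr9:55024098-55024127 (+ strand): aggcaatcaCCACCAGGGGGCagcagtaca
Htr1b chr9:81627098-81627127 (- strand): ctgggccgtCCACCAGGGGGCagaatgcct
Adra1b chr11:43783918-43783947 (+ strand): cttggctcaCCACCAGGGGGCactgtgagt
Chrnb1 chr11:69803941-69803970 (+ strand): gggtccccgCCACCAGCGGGCgcagcagcg
Chrna2 chr14:66147730-66147759 (- strand): acataactaCCACTAGATGGCagcaggccc
Chrm1 chr19:8662523-8662552 (+ strand): aaggatggcCCAGTAGGGGGCagcctgcca
Chrm1 chr19:8683232-8683261 (- strand): cttaaattgCCAGCAGGTGGCgctaaaatg
Adra1d chr2:131545759-131545788 (+ strand): caactatgtCCAGCAGGCGGCaccataacc
The Htr1b, Htr3a and Chrna3 sites had heights of 4.23 and 2.07, 3.23 and 1.55, and 3.16 and 1.10. Over the 18 receptor regions with a match and 1 peak in each mouse, the log2 ratio of replicate 2 to replicate 1, centred on the median of all regions, had a median of -0.19, and over the 60 without a match of -0.09. Over all regions the medians were -0.47 with and 0.05 without a match. A search with 1 of the 8 fixed letters free matched 63.0% of receptor regions and 50.6% of all, and so separates little. In 35 of the 92 receptor regions a match of that search overlapped a shared footprint.

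The remaining motifs were searched as TGANTCA for AP-1, CAGCTG and CAGATG for E-boxes, CTA, 4 bases and TAG for MEF2, GCGTGGGCG for EGR, GTTGCCA for RFX and TTGGC, 5 bases and GCCAA for NFI. The AP-1 pattern, for the element of activity-induced Fos and Jun proteins, was found in 4 regions (4.35%), against 10.6% of all. None of the 4 was in a shared footprint. The pattern allowed any middle base, and the match at Chrm1, TGATTCA, lacks the C or G of the AP-1 element. The match at Chrm3 lay outside the called region. The E-box CAGCTG was found in 17 (18.5% against 22.7%) and CAGATG in 14 (15.2% against 23.7%). The MEF2 pattern was found in 5 (5.43% against 3.44%), and EGR in 1, at the Htr7 promoter (1.09% against 0.775%). The MEF2 pattern allowed any 4 bases in its middle, where the MEF2 site has A or T. All 5 matches had a G or C among those bases, so none is read as a MEF2 site. The RFX site was found in 2 (2.17% against 5.36%), SP/KLF in 32 (34.8% against 33.0%), and NFI in 0, where all regions had 0.0798%.

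In 3 windows the libraries differed far beyond the rest. At Chrm4, 67.6% of the window's bases were listed under FDR 0.05 in replicate 1 and 15.8% in replicate 2, with 31 and 5 peaks. At Chrne the shares were 15.6% and 0.682%, with 10 and 0 peaks. At Adra1d it was replicate 2 that was higher, at 27.0% against 7.16%, with 18 peaks against 4. Windows with 10% or more of bases in 1 library and at least 3 times the other, limits set after these values were seen, made up 0.893% of all protein-coding gene windows, 126 of them higher in replicate 1 and 70 in replicate 2.

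**Figure D4:**
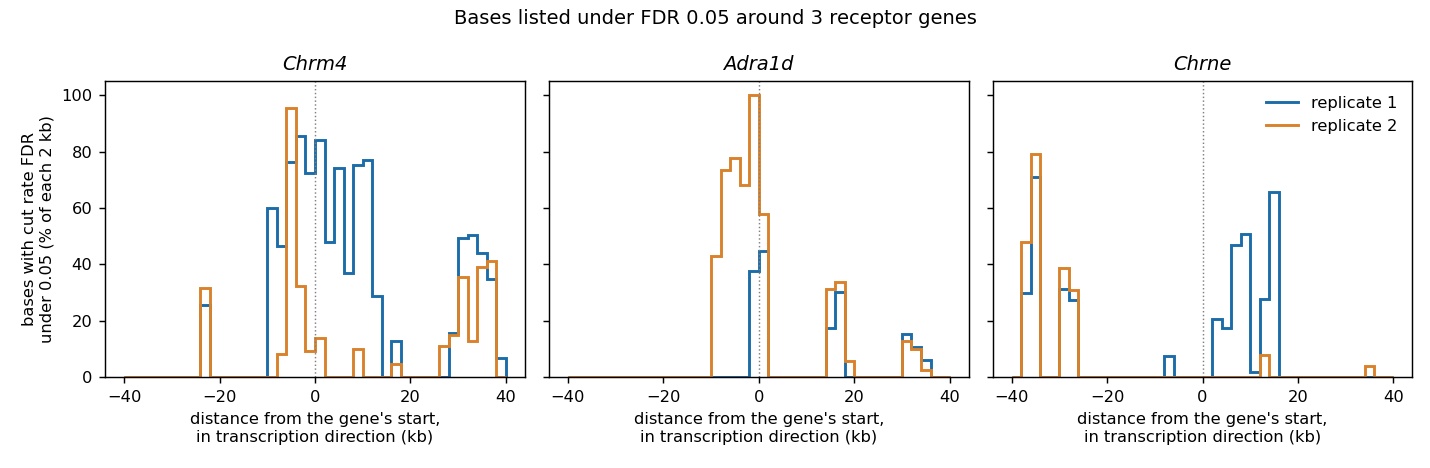
Share of bases under FDR 0.05 (% of each 2 kb) in replicate 1 (blue) and replicate 2 (orange) by distance from the start of Chrm4, Adra1d and Chrne (kb, in the direction of transcription). Replicate 1 is high from 10 kb upstream to 14 kb downstream of the Chrm4 start and on one side of Chrne, and replicate 2 is high over the 10 kb upstream of Adra1d. Outside these stretches the mice also differ at 32 to 34 kb of Chrm4 (50.4% against 12.8%).

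The excess came in blocks of several kb. The peaks of these windows were low, with a median height of 0.608 at Chrm4 in replicate 1 and of 0.132 at Adra1d in replicate 2, where all peaks of the libraries had medians of 1.17 and 0.909. The promoter peaks of Chrm4 and Adra1d were also called in the library without the block, at 2.19 and 2.10. The part of the blocks in these heights was not tested. Over all receptor windows replicate 1 had 169 peaks and replicate 2 133. Without these 3 windows the counts were 124 and 110, and a promoter peak was found for 26 of 44 genes. The library totals were 69208 and 69128. Median shares of listed bases over the 47 windows were 2.78% and 2.52%, against 2.79% and 2.95% over all protein-coding genes. The medians of the mice were thus close, which does not measure how far they differed within single windows.

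The partners of these receptors were taken from a list of 67 genes of the same pathways, of which 48 had a promoter peak in both mice, where the share of all protein-coding genes was 61.1%. On the receiving side it was 9 of 9 G protein alpha subunits, 17 of 18 effectors, 9 of 10 brakes and partners such as RGS proteins, arrestins and receptor kinases, and 5 of 8 nicotinic partners. Of the enzymes that break the transmitters down, 4 of 5 were. On the sending side it was 2 of 8 genes of transmitter synthesis and 2 of 9 of transport. Gnaz, a Gi-family alpha subunit, had 9.77 and 6.18, and Gna11, of the Gq family, 8.76 and 7.42. Slc18a1, a vesicular monoamine transporter, had the highest value of the list in replicate 1 (10.4, and 5.39 in replicate 2), but its region also lay at the start of the neighbour Atp6v1b2. Chat, which makes acetylcholine, Ddc, which makes dopamine and serotonin from their precursors, and Hdc, which makes histamine, had no promoter peak in either mouse, nor had Lypd6b.

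The tissue label was checked against marker lists, to be read against the 61.1% of all protein-coding genes with a promoter peak in both mice. All 8 of 8 excitatory neuron markers had a promoter peak in both mice, 5 of 6 for astrocytes, 3 of 6 for oligodendrocytes, 2 of 6 for interneurons, 2 of 6 for vessels and meninges and 0 of 5 for microglia. Of markers of neighbouring tissue, 3 of 6 for striatum, 2 of 7 for brainstem monoamine and cholinergic cells and 0 of 4 for choroid plexus had one. Among the brainstem markers the genes with a peak were Tph2 (1.39 and 0.662) and Dbh (2.11 and 1.62), while Th, Slc6a3, Slc6a4, Chat and Slc18a3 had none. How far such cells contribute to the receptor peaks was not tested.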

How the data were processed

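The deposited files hold, per the deposited read-me text, peaks, footprints and FDR cut rates made by the authors for each library on mm10. The names of the aligner and the callers were not given in the sources used here. Peak height is the authors' signal value, with no stated normalization. The deposited footprint score is constant, so positions alone were used. The deposited FDR values (the q-value kind of p-value) list positions under 0.05 only. Read depth is unknown, and no interval is given. Some deposited peaks overlap the entry before them (1573 and 1995 in the shorter lists).

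Overlapping peaks (at least 1 bp) of the 2 shorter lists were merged, and regions with a peak in each mouse kept, 48886 in all. Genes, starts, exons and UTRs came from GENCODE M21, bases from GRCm38, which is mm10. The gene window was the gene body with 10 kb to each side. Intervals and motifs were handled in Python 3.11.15 with numpy 2.4.6, pandas 2.3.3 and pysam 0.24.0, and the code was tested on simulated data. Medians and counts describe libraries, so no p-value is given. The receptor genes, the lists and the motifs were chosen with earlier results of these data known. Genes named were the 12 highest promoters, the 8 genes with most regions, genes without a promoter peak, the 10 highest other regions, each RE1 region and the extremes of the pathway list. Adra1a, Adra2c, Adrb3, the remaining serotonin, dopamine and nicotinic genes, the further regions and the marker genes were named after their values were seen. Alternatives covered the peak list, the height limit, the overlap, the windows, the starts, the FDR limit, the motif limits and leaving out each replicate. Sequence from chromosome 18, and values of some genes, are not reported here.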

Additional observations from a re-analysis of the deposited data

How the results depend on the processing

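The count of receptor genes with a promoter peak was 28. It was 15 when both peaks had to exceed the median height of their list, and between 28 and 31 with 1 replicate left out. The other settings kept it between 25 and 31. Without the 3 windows where the libraries differed far, a setting chosen after seeing the data, it was 26 of 44. No share over all protein-coding genes is given at the median height limit. The nearness to the background was therefore shown only without that limit. The median density of regions was 0.304 per 10 kb, 0.549 in the longer lists, and between 0.392 and 0.549 with 1 replicate left out. The share of regions with a footprint was 76.1%, 72.8% when footprints had to overlap by 50%, 62.0% in the longer lists, and between 92.4% and 94.6% with 1 library alone, where no second footprint is needed. The median share of bases was 2.77% as the mean of the mice, 1.84% under FDR 0.01, 1.07% under 0.001, and 2.52% to 2.78% with 1 replicate left out. RE1 matches numbered 3, 5 with up to 4 changed letters and 3 to 5 with 1 replicate left out. The pathway count (48) ranged from 42 to 57 under the settings run. The count of genes with any region (41) was 29 above the median height. It was 35 in the gene body without flanks, 47 with 50 kb flanks and between 39 and 43 in the other settings. No share over all protein-coding genes is given at these settings. No paired analysis was possible because there is 1 group.

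Each animal gave 1 library, the normalization of height is not stated and depth is unknown, so a promoter without a peak was not detected at this depth, not shown to be closed. Heights of different libraries were compared only as ranks or centred ratios, and raw heights are given side by side.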
